A study of Mus musculus with 9 samples.

Results

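The cytosolic ribosomal protein genes are the genes for the proteins of the large (Rpl) and small (Rps) subunits of the ribosome that translates nuclear mRNAs. They were taken by symbol: a name that starts with Rpl or Rps followed by a number, or Rpsa, Rplp0, Rplp1 or Rplp2, with Rps6k kinases, pseudogene names and antisense names left out. This gave 90 of the 38926 gene rows. They were 77 core genes of the standard ribosome (46 large-subunit and 31 small-subunit genes), 10 paralogs and 3 other names that meet the symbol rule (Rps12l1, Rps12l2 and Rps19bp1, the last encoding a protein that binds Rps19).

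The tissue was dorsal root ganglia of lumbar levels L3 to L5, ipsilateral to the injected paws, from wild type C57BL/6 male mice aged 8 to 10 weeks. The groups were cisplatin, 40 µg in total injected into the paw, oxaliplatin, also 40 µg in total into the paw, and vehicle, with 3 libraries each. Every library was stranded total RNA from the ganglia of 4 pooled animals, read as 75-nucleotide single ends, so the spread between single animals was not measured. Besides sensory neurons, these ganglia contain glia, blood vessels and immune cells. In such bulk tissue, fewer cells of a type and less RNA per cell cannot be told apart.

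Each ribosome contains nearly all of these proteins in equal number, and their genes are usually expressed in parallel. Most of their mRNAs begin with a C followed by a run of pyrimidines, the 5′ terminal oligopyrimidine (5′-TOP) motif, through which the kinase complex mTORC1 and the RNA-binding protein Larp1 control their translation and stability. In dividing cells, free Rpl5 and Rpl11 bind Mdm2 when ribosome assembly is disturbed, which raises p53. In sensory neurons, ribosomes also work in axons. Oxaliplatin is known from cancer cell lines to disturb ribosome assembly, and cisplatin to act mainly by damaging DNA.

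The start regions show which members carry a pyrimidine run where RefSeq places their start. RefSeq (GRCm38.p6) gave start regions for 65 of the 90 genes. Each line below runs 5′ to 3′ on the gene's strand from 30 bases before the annotated start to 25 bases after it, and the capitals mark the run of C and T that begins with a C within 3 bases of that start. The genes were chosen after their values were seen: Rps21, Rpl13a, Rps18 and Rpl35 rose with both drugs (none of them called with the length and GC trend described below removed), Rps6 and Rpl15 have such a run and passed the test with neither drug, and Rpl24 and Rpl10a were the members called lower. Members without such a run rose too, 22 of 37 with cisplatin and 20 with oxaliplatin, and none of these is printed.
Rps21: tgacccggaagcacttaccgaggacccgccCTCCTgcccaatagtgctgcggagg
Rpl13a: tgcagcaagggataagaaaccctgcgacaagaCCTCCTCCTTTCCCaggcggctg
Rps18: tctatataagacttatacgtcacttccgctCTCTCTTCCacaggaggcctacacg
Rpl35: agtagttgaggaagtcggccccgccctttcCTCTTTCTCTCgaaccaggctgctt
Rps6: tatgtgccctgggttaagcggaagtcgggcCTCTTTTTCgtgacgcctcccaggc
Rpl15: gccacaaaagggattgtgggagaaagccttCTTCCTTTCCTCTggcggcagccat
Rpl24: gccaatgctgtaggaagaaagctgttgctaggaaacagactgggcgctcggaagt
Rpl10a: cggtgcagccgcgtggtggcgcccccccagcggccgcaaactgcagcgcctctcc

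These windows lie at chr2:180257349-180257403 on the plus strand (Rps21, the first of 2 annotated starts), chr7:45128721-45128775 on the minus strand (Rpl13a), chr17:33955641-33955695 on the minus strand (Rps18) and chr2:39005107-39005161 on the minus strand (Rpl35). The others lie at chr4:86857343-86857397 on the minus strand (Rps6), chr14:18270962-18271016 on the minus strand (Rpl15), chr16:55966245-55966299 on the plus strand (Rpl24) and chr17:28328441-28328495 on the plus strand (Rpl10a, the first of 2 annotated starts). Each window spans promoter and the beginning of the transcript. A C within 3 bases of the start followed by at least 4 bases that are each C or T, on the gene's strand, was found in 38.5% of the 65 genes, against 13.5% of all 27025 genes in the RefSeq table. With the C required at the start base itself, 13 of the 65 genes and 813 of the 27025 had such a run. The letters CCGGAAG, read on either strand in the 200 bases before the start, were found in 27.7% of the 65 genes and in 7.2% of all genes. A match describes letters in a window and is not a site of control.

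Of the 90 genes, 85 passed the filter on low counts and entered the test. Rpl10l and Rps12l1 had no read in any library, Rps12l2 had at most 1, Rpl39l at most 4 and Rpl3l at most 9. Ribosomal protein genes have many near-identical processed pseudogenes, and reads that aligned to several places were assigned to no gene, so each count is the part of a gene that aligns uniquely. For 12 core genes, among them Rps27, Rps13, Rps29 and Rpl23a, this left fewer than 100 reads per library on average, and their values carry wide errors. Reads counted in genes numbered 22819185 to 38808509 per library, and the number on the family lay between 64135 and 197831. Vehicle library 2 stood apart: 47.7% of its uniquely aligned reads lay outside genes, against 26.2 to 26.8% in the other vehicle libraries, 18.6 to 19.1% in the cisplatin libraries and 16.6 to 17.8% in the oxaliplatin libraries. Its scaling factor was 0.700, while the other libraries had 0.960 to 1.10. Of the reads recorded for vehicle library 2, 51.03% aligned to several places, against 25.92 to 33.85% in the other libraries. In all, 74.51% of its recorded reads were assigned to no gene, against 42.76 to 48.75% in the others.

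Many ribosomal protein genes were higher after both drugs. In cisplatin against vehicle, 47 of the 85 tested members rose, 1 fell and 37 did not pass the test (edgeR quasi-likelihood test, Benjamini-Hochberg adjusted p under 0.05 over all 17348 genes). Among all genes tested, 15.8% were called higher and 22.9% lower in this comparison. In oxaliplatin against vehicle, 48 members rose, 2 fell and 35 did not pass, while 17.5% of all genes were called higher and 24.1% lower. The changes were small: the median log2 fold change of the members was 0.28 for cisplatin and 0.29 for oxaliplatin, with a median of all genes of 0.00 in both comparisons. The log2 fold change was above 0 for 77 members with cisplatin and for 70 with oxaliplatin. Both comparisons use the same vehicle libraries, so they are not independent of each other.

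The levels, as CPM (counts scaled to library totals, with the totals corrected for composition by the TMM method), did not overlap between groups for many members. All 3 cisplatin libraries lay above all 3 vehicle libraries for 40 members and below them for 2, where 21.3% of all genes lay above and 26.7% below. All oxaliplatin libraries lay above all vehicle libraries for 44 members and below them for 3, where 23.1% of all genes lay above and 27.4% below. By subunit, 25 of the 46 core large-subunit genes rose with cisplatin and 26 with oxaliplatin, and 1 and 2 fell. Of the 31 core small-subunit genes, 18 rose with each drug and none fell. Among the 65 core genes that averaged 100 reads or more, 43 rose with each drug, whereas among the 12 below that depth none was called with cisplatin and 1, Rpl17, named after its values were seen, rose with oxaliplatin. Library totals in place of TMM scaling moved the median of all genes to 0.29 with cisplatin and 0.30 with oxaliplatin, and that of the members to 0.58 and 0.60. A change of scale moves all genes of a library alike, so the distance between these medians cannot test the result. On that scale 66 members rose with cisplatin and 65 with oxaliplatin, where 34.5 and 36.9% of all genes were called higher.

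**Figure D1:**
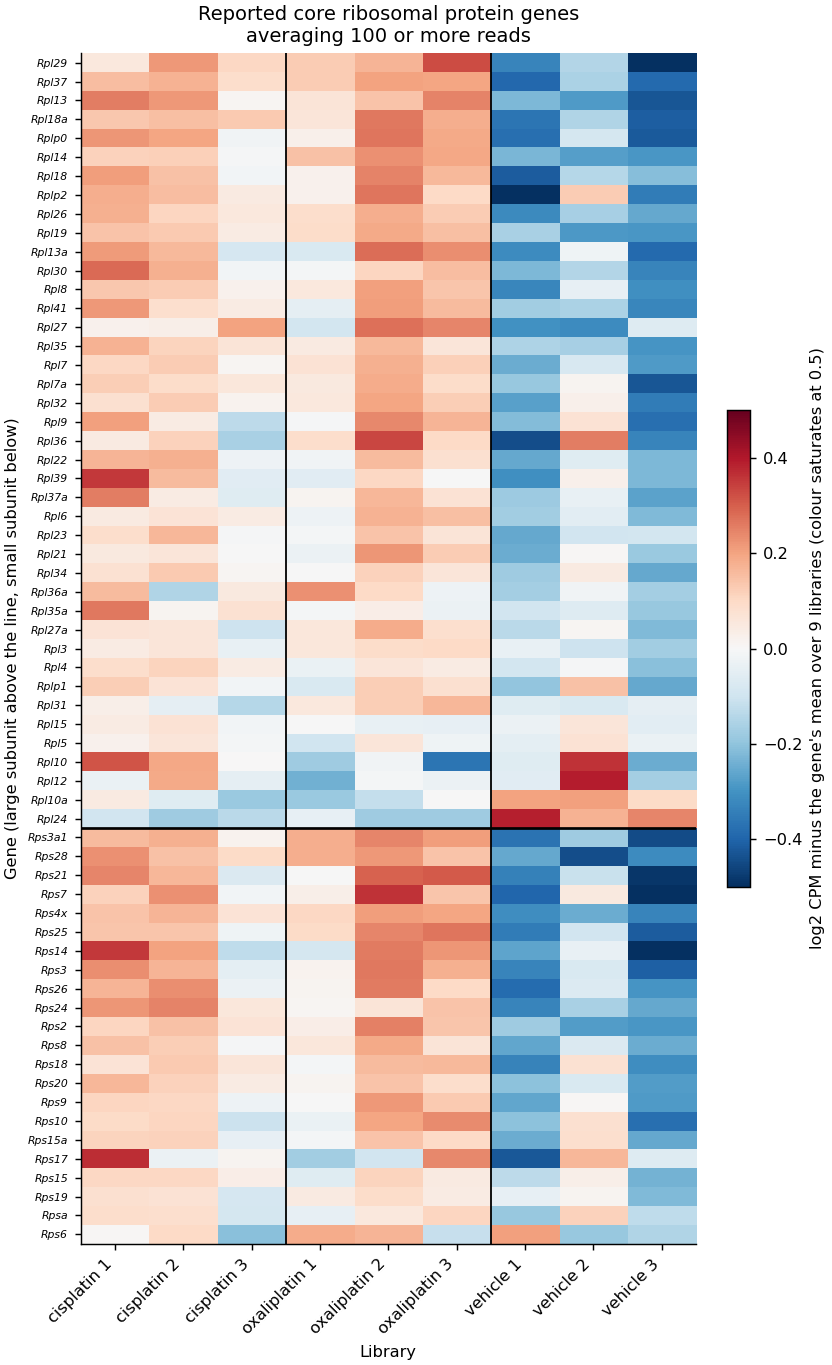
The reported core ribosomal protein genes averaging 100 or more reads per library (rows, large subunit above the line and small subunit below) in the 9 libraries (columns); colour is the log2 CPM minus the gene's mean over the 9 libraries. Most genes are above their mean in the cisplatin and oxaliplatin libraries and below it in vehicle libraries 1 and 3, and vehicle library 2 lies between; Rpl24 and Rpl10a run the other way.

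The share of all gene reads that fell on the family was 0.504, 0.492 and 0.426% in the cisplatin libraries, 0.436, 0.517 and 0.492% in the oxaliplatin libraries and 0.337, 0.281 and 0.324% in the vehicle libraries. Every drug library lay above every vehicle library, and exact (Clopper-Pearson) 95% intervals, which cover counting error only, reached from 0.424 to 0.519% over the drug libraries and from 0.279 to 0.340% over the vehicle libraries. The mean share was 0.474% ± 0.0418 with cisplatin, 0.482% ± 0.0415 with oxaliplatin and 0.314% ± 0.0295 with vehicle (SD, n = 3 each), a ratio to vehicle of 1.51 and 1.53. A two-sided exact permutation test gave p = 0.1 for each drug, the smallest that 3 libraries against 3 allow, and 0.139 after adjustment over the 18 library comparisons made. After TMM scaling the summed level was 4620, 4531 and 4115 CPM with cisplatin, 4159, 4687 and 4530 CPM with oxaliplatin and 3517, 4018 and 3374 CPM with vehicle. On this scale the ratios to vehicle were 1.22 and 1.23, and vehicle library 2 came close to the lowest drug libraries. Without vehicle library 2, 55 members rose with cisplatin and 57 with oxaliplatin, and the medians were 0.36 and 0.34. In that fit the share of all genes called higher was also larger, at 19.2% with cisplatin and 20.4% with oxaliplatin.

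The changes followed mRNA length across all genes. Across all 16380 genes with an annotated mRNA length, the log2 fold change and mRNA length had a Spearman correlation of -0.42 with each drug, a description across genes, which share libraries and are not independent. The tested members are short, with a median mRNA of 834 nt against 2785 nt for all genes. Other genes with an mRNA of 501 to 750 nt had a median log2 fold change of 0.22 with cisplatin and 0.24 with oxaliplatin, where the 21 members of that length had 0.28 and 0.30. At 751 to 1000 nt, other genes had 0.20 and 0.22, and the 25 members had 0.31 and 0.32. At up to 500 nt the order depended on the drug: the 11 members had 0.19 with cisplatin, against 0.15 for the 555 other genes, but 0.15 with oxaliplatin, against 0.20 for the others. At 1001 to 1500 nt, other genes had 0.16 and 0.18, and the 15 members had 0.29 and 0.33. At 1501 to 2500 nt, other genes had 0.09 and 0.10, and the 8 members had 0.18 and 0.19. At 2501 to 4000 nt, other genes had -0.03 and -0.02, and the 3 members had 0.30 and 0.29. Other genes over 4000 nt had a median of -0.21 with each drug, and the 1 member of that length had 0.20 and 0.22. Within the family, length and change were nearly unrelated (Spearman 0.09 with cisplatin and 0.11 with oxaliplatin, 84 members).

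**Figure D2:**
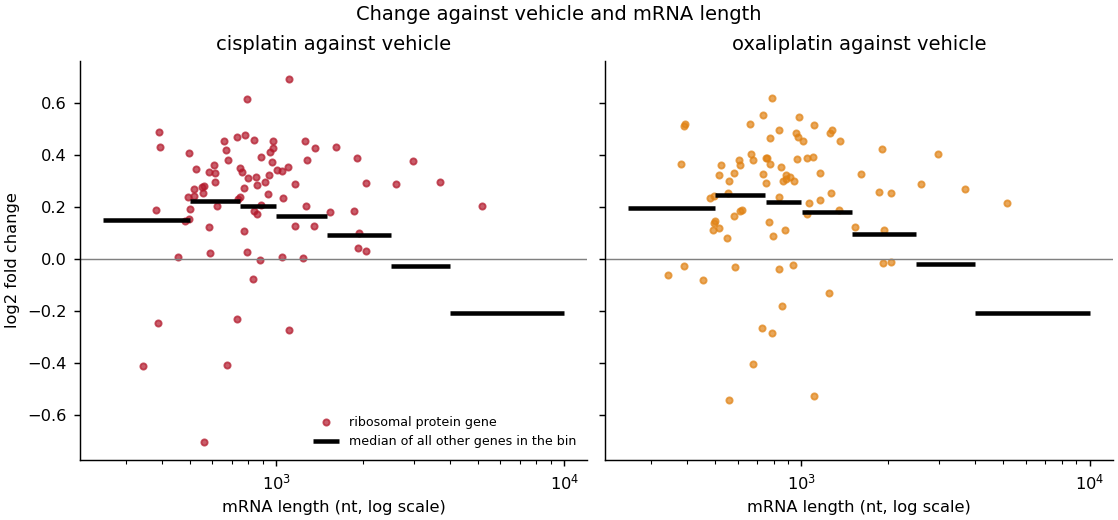
Log2 fold change against vehicle (vertical axis) and mRNA length in nt (log scale) for each tested ribosomal protein gene (points), with the median of all other genes in 7 length bins (black lines; the first and last bins are open at their outer ends), for cisplatin on the left and oxaliplatin on the right. Members of 501 to 1500 nt cluster above the median of other genes of their length, and that median is below 0 past 2500 nt.

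When each library's trend with mRNA length and GC content was removed, 15 members rose and 3 fell with cisplatin, and 19 rose and 6 fell with oxaliplatin. In that fit 14.1% of all genes were called higher with cisplatin and 15.6% with oxaliplatin, so the members' counts of 15 and 19 of 85 higher were near the background. Called lower were 3142 of the 17348 genes with cisplatin and 3073 with oxaliplatin, a larger share than the members' 3 and 6 of 85. The median log2 fold change was then 0.03 and 0.06, so the size of the shift over the family rested on this setting. Whether the trend was a property of the tissue or of the libraries was not tested, and reads outside genes, given above, also separated the vehicle libraries from the drug libraries. In that fit Rps3 (0.30 with cisplatin and 0.34 with oxaliplatin), Rplp0 (0.24 and 0.26), Rps4x (0.23 and 0.28), Rpl37 (0.23 and 0.29) and Rps3a1 (0.27 and 0.37) still rose with both drugs. Rps20 (0.45 and 0.48), named after its values were seen, had the highest value among the members called in that fit. Rpl24 (-0.72 and -0.68) and Rpl10a (-0.55 and -0.57) fell with both drugs. The trend was fitted to annotated mRNA length, which was 3706 nt for Rps20 and 1908 nt for Rps3, against a member median of 834 nt. How far their calls in that fit rest on this annotation was not tested.

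The P stalk of the large subunit recruits translation factors and is built from Rplp0, Rplp1 and Rplp2. Rplp0 had 248, 244 and 211 CPM in the cisplatin libraries, 217, 257 and 243 CPM in the oxaliplatin libraries and 164, 201 and 159 CPM in the vehicle libraries. All drug libraries were above all vehicle libraries, with vehicle library 2 the nearest. The log2 fold change was 0.43 (SE 0.10, adjusted p = 0.00447) for cisplatin and 0.45 (SE 0.10, adjusted p = 0.00288) for oxaliplatin by edgeR. Rplp1 had 279.6, 269 and 254 CPM with cisplatin, 243, 279 and 271 CPM with oxaliplatin and 224, 284 and 215 CPM with vehicle. Vehicle library 2 was the highest of the 9 for Rplp1, the groups overlapped, and neither change passed (0.15, adjusted p = 0.227, and 0.14, adjusted p = 0.273). Without vehicle library 2, Rplp1 passed with both drugs (0.30, adjusted p = 0.00679, and 0.29, adjusted p = 0.00809), and with the length and GC trend removed it fell (-0.15 and -0.17). Rplp2 rose by edgeR (0.37, adjusted p = 0.0395, and 0.38, adjusted p = 0.0334), but vehicle library 2, at 40.2 CPM, lay within the drug libraries. Removing the length and GC trend ended both Rplp2 calls (0.13 and 0.14). Leaving out single libraries also ended them, with adjusted p from 0.0551 (without oxaliplatin library 3) to 0.134 (without vehicle library 1) for cisplatin and from 0.0664 (without oxaliplatin library 3) to 0.118 (without vehicle library 3) for oxaliplatin.

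Among the other large-subunit proteins, Rpl13a, which in human monocytes also acts outside the ribosome to silence inflammatory mRNAs, had 261, 252 and 212 CPM with cisplatin, 213, 273 and 264 CPM with oxaliplatin and 181, 222 and 172 CPM with vehicle. It rose with both drugs (log2 fold change 0.34 and 0.39, adjusted p = 0.0357 and 0.0179), although vehicle library 2 was above the lowest library of each drug. The call ended without cisplatin library 1 or 2 or vehicle library 1 or 3 for cisplatin (adjusted p = 0.0973 to 0.133), and without oxaliplatin library 2 or 3 or vehicle library 1 or 3 for oxaliplatin (adjusted p = 0.0568 to 0.0749), by edgeR. Both Rpl13a calls also ended with the length and GC trend removed (0.10 and 0.15). Rpl8, a protein near the catalytic centre, had 238, 237 and 220 CPM with cisplatin, 225, 250.1 and 239 CPM with oxaliplatin and 173, 211 and 176 CPM with vehicle. The groups did not overlap, and the log2 fold changes were 0.32 and 0.35 (SE 0.08 each). With the length and GC trend removed, Rpl8 was not called with cisplatin (0.07, adjusted p = 0.216) and stood at 0.12 with oxaliplatin. Rpl29, a small basic protein that also binds heparin, had 8.49, 9.52 and 8.80 CPM with cisplatin, 8.94, 9.22 and 10.3 CPM with oxaliplatin and 6.52, 7.39 and 5.72 CPM with vehicle. It was the core large-subunit gene with the highest log2 fold change with oxaliplatin (0.55, 95% interval 0.33 to 0.78), and it stood at 0.47 with cisplatin. With the trend removed, Rpl29 was not called with cisplatin (0.17, adjusted p = 0.204) and stood at 0.27 with oxaliplatin (adjusted p = 0.0486). Rpl37 (0.46 and 0.49) and Rpl13 (0.48 and 0.47) rose by similar amounts, and their groups did not overlap. With the trend removed, Rpl37 was still called, and both Rpl13 calls ended (0.19, adjusted p = 0.0851, and 0.20, adjusted p = 0.0727). Rpl3, which shapes the catalytic centre, passed with oxaliplatin (0.19, adjusted p = 0.0179) and missed the threshold with cisplatin (0.13, adjusted p = 0.092), where it passed without cisplatin library 3 (adjusted p = 0.0402), without vehicle library 1 (adjusted p = 0.0433) or with a filter of 1 CPM in 3 libraries (adjusted p = 0.0433). The direct contrast of the drugs gave -0.06 (adjusted p = 0.867). The oxaliplatin call for Rpl3 ended without oxaliplatin library 2 or 3 or vehicle library 3 (adjusted p = 0.0538 to 0.0679), and with the length and GC trend removed its value was -0.01.

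Rpl5 and Rpl11, which carry 5S ribosomal RNA into the ribosome and can bind Mdm2, were not called in either comparison. Rpl5 had 18.1, 18.6 and 17.7 CPM with cisplatin, 16.7, 18.6 and 17.6 CPM with oxaliplatin and 17.3, 18.8 and 17.5 CPM with vehicle. These ranges coincided, with log2 fold changes of 0.03 (95% interval -0.11 to 0.17) and -0.01 (-0.15 to 0.13). The intervals for Rpl5 lay below the family medians of 0.28 and 0.29. With the length and GC trend removed the gap was smaller: Rpl5 stood at -0.0036 and 0.0089, where the family medians were 0.03 and 0.06. Rpl11 averaged 2.48 ± 0.265 CPM with cisplatin, 2.55 ± 0.355 CPM with oxaliplatin and 2.64 ± 0.433 CPM with vehicle (SD, n = 3 each), and its intervals, -0.44 to 0.28 and -0.39 to 0.32, were too wide to set it apart from the family. Rpl10, which joins the large subunit late in its assembly, stood at 0.17 and -0.18 and passed in neither. Rpl15 had the narrowest error of the uncalled genes, at 0.04 and -0.02 (SE 0.05 each), and was named after its values were seen.

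Rpl24 went against the family. This protein bridges the subunits, and a mutation in its gene causes the Belly spot and tail phenotype in mice. It had 58.1, 54.9 and 56.5 CPM with cisplatin, 60.3, 54.8 and 54.8 CPM with oxaliplatin and 81.1, 70.0 and 73.4 CPM with vehicle. Every drug library was below every vehicle library. The log2 fold change was -0.41 (SE 0.06, adjusted p = 0.000387) for cisplatin and -0.40 (SE 0.06, adjusted p = 0.000372) for oxaliplatin. With library totals in place of TMM scaling, Rpl24 stood at -0.12 and -0.11 and was not called. The GENCODE annotation places a gene on the same strand across Rpl24, so reads of the pair may not be separable. Rpl10a, the protein tagged for purifying ribosomes of chosen cell types in mice, had 5.99, 5.57 and 5.11 CPM with cisplatin, 5.11, 5.35 and 5.80 CPM with oxaliplatin and 6.67, 6.70 and 6.21 CPM with vehicle. It was lower in all drug libraries, at -0.23 (adjusted p = 0.0785) with cisplatin, and was called only with oxaliplatin (-0.26, adjusted p = 0.0441), a call that was lost under most alternatives. The adjusted p was 0.0524 with median-ratio factors, 0.0541 with the 2 groups alone, 0.0605 with the 1 CPM filter, 0.0646 with small RNAs removed, 0.0647 with TMM factors without the members, 0.0669 with a replicate block, 0.113 with DESeq2 and 0.175 with no filter, and the value was 0.04 on library totals. The call was also lost when any 1 library but cisplatin library 1 or oxaliplatin library 3 was left out (adjusted p = 0.0519 without vehicle library 3 to 0.167 without oxaliplatin library 1).

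**Figure D3:**
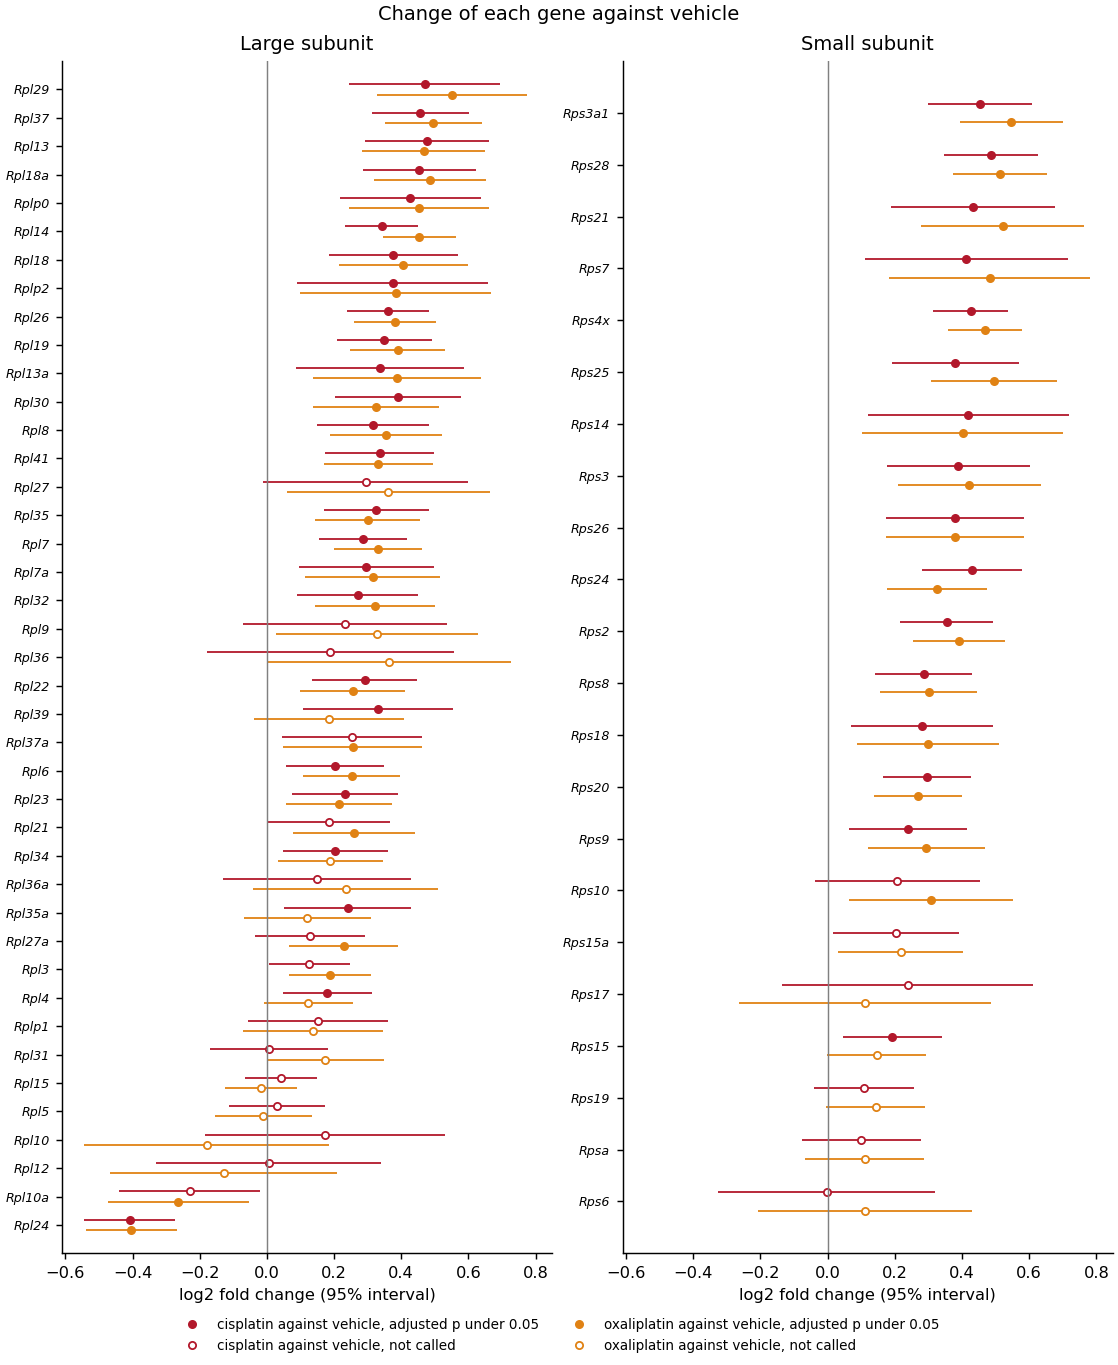
Log2 fold change against vehicle (points) with its 95% interval (lines) for the reported core genes averaging 100 or more reads, large subunit on the left and small subunit on the right, each gene with cisplatin above oxaliplatin; filled points passed an adjusted p of 0.05. The points of the drugs lie close together for nearly every gene, from 0.55 for Rpl29 with oxaliplatin to -0.41 for Rpl24 with cisplatin.

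In the small subunit, Rps3, which lines the entry of the mRNA channel and takes part in ribosome quality control, had 299, 287 and 246 CPM with cisplatin, 258, 306 and 288 CPM with oxaliplatin and 202, 241 and 192 CPM with vehicle. All drug libraries were above all vehicle libraries, and the log2 fold change was 0.39 (SE 0.10, adjusted p = 0.00841) for cisplatin and 0.42 (SE 0.10, adjusted p = 0.00492) for oxaliplatin. Rps4x, encoded on the X chromosome, had 68.3, 69.6 and 64.9 CPM with cisplatin, 66.4, 71.5 and 70.9 CPM with oxaliplatin and 49.9, 52.1 and 49.2 CPM with vehicle. Its groups were well apart, and it had the smallest adjusted p of the members in both comparisons (0.43, adjusted p = 9.09e-05, and 0.47, adjusted p = 3.84e-05). Rps28, which sits near the mRNA exit, had 31.9, 30.1 and 29.0 CPM with cisplatin, 30.9, 31.6 and 30.03 CPM with oxaliplatin and 22.8, 19.98 and 21.9 CPM with vehicle. For Rps28 vehicle library 2 was the lowest of the vehicle libraries, and the log2 fold changes were 0.49 and 0.51 (SE 0.06 each). Both calls ended with the length and GC trend removed (0.19, adjusted p = 0.106, and 0.17, adjusted p = 0.136). Rps21 (0.43 and 0.52) and Rps3a1 (0.45 and 0.55) also rose without overlap. With the trend removed, Rps3a1 was still called, and both Rps21 calls ended (0.15, adjusted p = 0.164, and 0.20, adjusted p = 0.0656).

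Rps6, the substrate of S6 kinase downstream of mTORC1, had 3.30, 3.52 and 2.85 CPM with cisplatin, 3.74, 3.70 and 3.03 CPM with oxaliplatin and 3.79, 2.88 and 2.96 CPM with vehicle. The libraries were mixed, and the log2 fold changes of -0.00 and 0.11 had intervals of -0.33 to 0.32 and -0.21 to 0.43. Rps19, the gene most often mutated in the human anaemia of Diamond and Blackfan, stood at 0.11 (adjusted p = 0.23) and 0.14 (adjusted p = 0.112). With oxaliplatin it passed without vehicle library 2 (0.21, adjusted p = 0.038), without cisplatin library 3 (adjusted p = 0.0484) or with no filter on low counts (adjusted p = 0.0303). Rpsa, whose protein is also known as a laminin receptor precursor, stood at 0.10 and 0.11 and was not called, but without vehicle library 2 it passed with both drugs (0.21, adjusted p = 0.0391, and 0.22, adjusted p = 0.0289). Rps27a, made as a fusion with ubiquitin, averaged 2.14 ± 0.0419 CPM with cisplatin, 1.73 ± 0.205 CPM with oxaliplatin and 2.18 ± 0.572 CPM with vehicle and passed in neither comparison, but with the length and GC trend removed it was called lower with oxaliplatin (-0.52, adjusted p = 0.028). Fau, made as a fusion with a ubiquitin-like protein, did not pass either (0.46 with cisplatin and 0.56 with oxaliplatin), at no more than 1.02 CPM in any library.

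**Figure D4:**
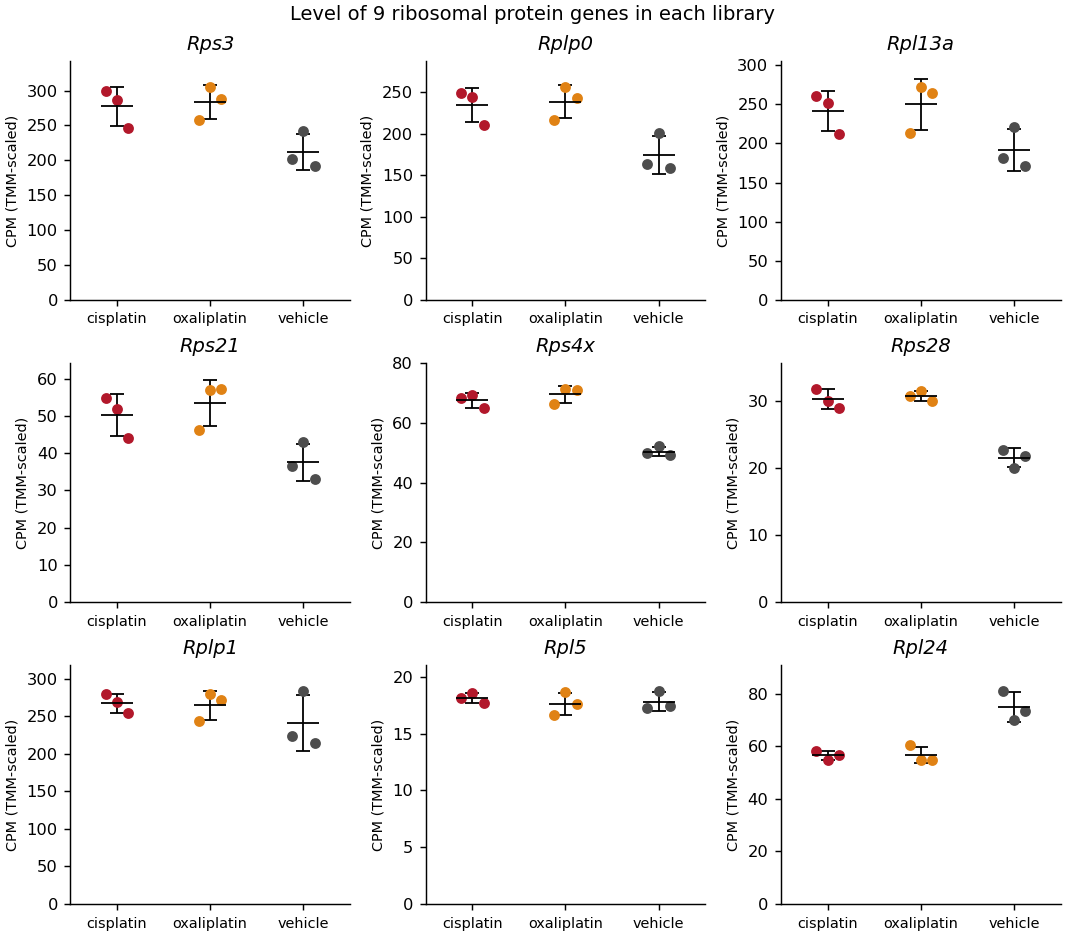
Level in CPM after TMM scaling (vertical axes, from 0) of 9 ribosomal protein genes in each library (points), with the mean and SD of the 3 libraries of a group (horizontal bars and whiskers), for cisplatin, oxaliplatin and vehicle. Rps21, Rps4x and Rps28 are higher in every drug library, Rpl5 coincides between groups, and Rpl24 is lower in every drug library; libraries 1 to 3 of a group run from left to right.

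Of the paralogs, Rps27l, which p53 induces in human and mouse cells, had 25.2, 22.3 and 21.7 CPM with cisplatin, 20.4, 21.4 and 19.8 CPM with oxaliplatin and 16.7, 19.4 and 16.5 CPM with vehicle. It rose with both drugs (0.41, adjusted p = 0.00222, and 0.24, adjusted p = 0.0319), and every cisplatin library was above every oxaliplatin library. The direct contrast gave 0.16 (SE 0.08, adjusted p = 0.767) and was not called. Without oxaliplatin library 2 or vehicle library 1 or 3, the oxaliplatin call ended (adjusted p = 0.0808 to 0.116). With the length and GC trend removed, both Rps27l calls ended (0.15, adjusted p = 0.0811, and 0.02, adjusted p = 0.816). Its partner Rps27 averaged 11.8 reads per library and passed in neither comparison (0.287 ± 0.0438 CPM with cisplatin, 0.366 ± 0.141 CPM with oxaliplatin and 0.407 ± 0.139 CPM with vehicle, SD, n = 3 each). Rpl22 and Rpl22l1 are a pair whose levels are known to be linked: Rpl22 rose with both drugs (0.29 and 0.26), with an adjusted p of 0.06 for oxaliplatin when oxaliplatin library 2 was left out, while Rpl22l1, at 29.9 ± 5.64 CPM with cisplatin, 26.1 ± 2.32 CPM with oxaliplatin and 24.9 ± 4.65 CPM with vehicle, did not pass (0.28 and 0.08). Rpl22l1 passed with cisplatin without cisplatin library 3 (0.43, adjusted p = 0.0309) or with no filter (0.32, adjusted p = 0.0285), and Rpl22 stood at 0.20 and 0.17 with the trend removed, still called.

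Rpl36al rose with both drugs (0.35 and 0.36), while its partner Rpl36a did not pass (0.15 and 0.23). With the length and GC trend removed neither was called, and Rpl36al stood at 0.03 (adjusted p = 0.772) and 0.06 (adjusted p = 0.551). Rpl7l1 (0.29 and 0.29) and Rpl7 (0.29 and 0.33) both rose, and with the trend removed they were still called, at 0.24 and 0.25 for Rpl7l1 and 0.16 and 0.21 for Rpl7. Rpl39 passed with cisplatin (0.33, adjusted p = 0.0234) and not with oxaliplatin (0.19, adjusted p = 0.167), where it passed without vehicle library 2 (0.30, adjusted p = 0.0309) or with no filter (adjusted p = 0.0251). The cisplatin call ended with the trend removed (0.05) and without cisplatin library 1 or 2 or vehicle library 1 or 3 (adjusted p = 0.0589 to 0.101). Rps3a2, with the highest log2 fold change of all called members (0.62 with each drug, and 0.38 and 0.41 with the trend removed), is annotated by GENCODE as a processed pseudogene of the Rps3a family, so its 6.01 to 10.3 CPM cannot be separated with certainty from reads of Rps3a1. Rps4y2, the name in the files for a gene that RefSeq also lists as Rps4l, stood at 0.14 with each drug and was not called. The paralogs of muscle (Rpl3l) and testis (Rpl10l and Rpl39l) were at or near 0, as given above.

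Per kilobase of mRNA, the highest levels in the family included those of Rplp1 (516 CPM per kilobase, mean of the 9 libraries), Rps14 (262), Rpl8 (257) and Rps15 (235.4). These values cover only uniquely aligned reads, so a gene with many pseudogene copies may rank low whatever its transcription. Rps14 rose with both drugs (0.42 and 0.40, adjusted p = 0.0301 and 0.0337), and the vehicle libraries of Rps14 overlapped the drug libraries. The calls for Rps14 ended without any 1 of cisplatin libraries 1 and 2 and vehicle libraries 1 and 3 for cisplatin (adjusted p = 0.0692 to 0.123), or of oxaliplatin libraries 2 and 3 and vehicle libraries 1 and 3 for oxaliplatin (adjusted p = 0.0728 to 0.138). With the length and GC trend removed, Rps14 stood at 0.10 (adjusted p = 0.44) and 0.11 (adjusted p = 0.394). Rps15 passed with cisplatin (0.19, adjusted p = 0.0406) and not with oxaliplatin (0.15, adjusted p = 0.104), where it passed without vehicle library 2 (0.24, adjusted p = 0.0142), without oxaliplatin library 1 (0.22, adjusted p = 0.0254) or with no filter (adjusted p = 0.0194). The cisplatin call ended without any 1 of cisplatin libraries 1 and 2, oxaliplatin library 3 and vehicle libraries 1 and 3 (adjusted p = 0.0596 to 0.154). With the length and GC trend removed, Rps15 stood at -0.11 with cisplatin (adjusted p = 0.0655) and was called lower with oxaliplatin (-0.16, adjusted p = 0.0119).

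The balance of reads between the subunits differed slightly between groups. Reads on Rpl names over reads on Rps names gave a ratio of 1.458, 1.463 and 1.504 with cisplatin, 1.473, 1.453 and 1.449 with oxaliplatin and 1.541, 1.542 and 1.566 with vehicle. Every drug library was below every vehicle library, vehicle library 2 included. The mean was 1.48 ± 0.0249 with cisplatin, 1.46 ± 0.0131 with oxaliplatin and 1.55 ± 0.0142 with vehicle (SD, n = 3 each), and the exact permutation test gave p = 0.1 for each drug (0.139 adjusted), the smallest possible. This ratio does not depend on the scaling of libraries. It sums raw reads, so genes with many reads weigh most and the length and GC trend was not removed from it. Gene by gene, the median log2 fold change was 0.25 and 0.26 for core large-subunit genes (cisplatin and oxaliplatin). For core small-subunit genes it was 0.29 and 0.30.

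Members with and without the start-site run had similar counts and medians. Among tested members with a pyrimidine run within 3 bases of the start, 13 of 25 rose with cisplatin and 13 with oxaliplatin, with median log2 fold changes of 0.24 and 0.23. Among those with no run that begins with a C within 3 bases of the start, 22 of 37 rose with cisplatin and 20 with oxaliplatin, with medians of 0.29 and 0.29. Runs elsewhere in the window were not counted. Overlap with other genes could add foreign reads, and 24 of the 88 members found in GENCODE overlap a gene on the other strand. The 23 of them that were tested had medians of 0.27 and 0.29, and the 61 tested members with no such overlap had 0.29 and 0.29. Of the 17 tested members with CCGGAAG, 11 rose with cisplatin and 13 with oxaliplatin (medians 0.34 and 0.33). Of the 45 without it, 24 and 20 rose (0.24 and 0.24). This difference was not tested.

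In the direct contrast of cisplatin with oxaliplatin, none of the 85 members was called in either direction, where 0.0115% of all genes were called higher with cisplatin and 0% lower; DESeq2 called none either, and 3 members had an unadjusted p under 0.05. The median log2 difference, cisplatin over oxaliplatin, was -0.02. The smallest p-values belonged to Rpl14 (77.1 ± 3.71 CPM with cisplatin and 83.4 ± 2.43 CPM with oxaliplatin, log2 difference -0.11, 95% interval -0.22 to -0.01), Rpl10 (0.35, 0.01 to 0.69) and Rpl31 (-0.17, -0.33 to -0.00), all with an adjusted p of 0.767. The drugs were given at the same cumulative dose by weight.

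Genes that work with ribosomes did not all follow the family. The counts below stand beside the 15.8% of all genes called higher and 22.9% called lower with cisplatin, and the 17.5 and 24.1% with oxaliplatin. Of 26 other genes with 5′-TOP mRNAs, such as translation elongation factors, 9 rose and 2 fell with cisplatin and 12 rose and 3 fell with oxaliplatin (medians 0.15 and 0.17). With the length and GC trend removed, 8 rose and 2 fell with cisplatin and 9 rose and 2 fell with oxaliplatin (0.03 and 0.07). In that fit 14.1% of all genes were called higher with cisplatin and 15.6% with oxaliplatin, and 3142 and 3073 of 17348 were called lower. Eif3k, a subunit of initiation factor 3, stood at 0.33 with cisplatin (adjusted p = 0.000538), and every oxaliplatin library was also above every vehicle library. Pabpc1, the poly(A)-binding protein, had 51.9, 55.9 and 57.8 CPM with cisplatin, 55.4, 47.0 and 57.1 CPM with oxaliplatin and 91.0, 89.4 and 82.4 CPM with vehicle. It fell without overlap, with log2 fold changes of -0.66 (adjusted p = 6.38e-05) and -0.72 (adjusted p = 2.98e-05). Hnrnpa1 fell with oxaliplatin (-0.95, adjusted p = 0.000313), and every cisplatin library was also below every vehicle library.

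The genes of mTORC1 and S6 kinase signalling were mostly lower: of 23 tested, 1 rose and 14 fell with each drug, with a median of -0.25 in both comparisons. Mtor, the kinase itself, had 113, 117 and 131 CPM with cisplatin, 151, 121 and 128 CPM with oxaliplatin and 189.7, 169 and 182 CPM with vehicle. It lay lower in every drug library, with a log2 fold change of -0.58 (adjusted p = 0.000261) for cisplatin. Larp4, an RNA-binding protein that stabilises poly(A) tails, fell with both drugs (-0.48 and -0.55), and Deptor, an mTOR inhibitor, fell with oxaliplatin (-0.76). Deptor was also lower in every cisplatin library than in every vehicle library. These mRNAs are long, with a median of 4586 nt. With the length and GC trend removed, 10 of the 23 fell with each drug and none rose, where 3142 (cisplatin) and 3073 (oxaliplatin) of all 17348 genes fell. With library totals alone, 4 rose and 3 fell with cisplatin and 6 rose and 2 fell with oxaliplatin. Their medians were then 0.25 below that of all genes in both, a distance that a change of scale leaves nearly fixed.

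Ribosome biogenesis genes were called no more often than genes in general. Of 58 tested, 7 rose and 10 fell with cisplatin and 9 rose and 9 fell with oxaliplatin, and the medians were -0.00 and 0.00. Mdn1, the giant ATPase that remodels large-subunit precursors, fell with both drugs (-1.01, adjusted p = 5.69e-05, and -0.79, adjusted p = 0.000183). Ncl, the nucleolar protein nucleolin, fell with cisplatin (-0.46), and Nop10, a small protein of box H/ACA RNA particles, rose with oxaliplatin (0.40). Ncl also lay below all vehicle libraries in every oxaliplatin library, and Nop10 above them in every cisplatin library. Translation initiation genes were called higher at about the rate of all genes with cisplatin. Of 30 tested, 5 rose and 9 fell with cisplatin and 8 rose and 11 fell with oxaliplatin. Eif1, which guards start codon choice, had 33.3, 34.9 and 39.1 CPM with cisplatin, 34.5, 32.7 and 33.3 CPM with oxaliplatin and 69.9, 70.4 and 58.8 CPM with vehicle, and it fell in both comparisons (-0.89 and -0.98). Of 12 tested genes of nucleolar stress and p53, 1 rose and 3 fell with cisplatin and none rose and 6 fell with oxaliplatin. Mdm2, which Rpl5 and Rpl11 can bind, fell with cisplatin (-0.22, adjusted p = 0.00882), and Zmat3, a p53 target, fell with both drugs (-1.002 and -1.02). Mdm2 was also lower in every oxaliplatin library than in every vehicle library. The values of these 3 lists and their genes are without removal of the length and GC trend, and its part in them was not tested. Median mRNA lengths were 2669 nt for biogenesis, 2287.5 nt for initiation and 2256.5 nt for nucleolar stress and p53, against 2785 nt for all genes.

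Other multi-subunit complexes also had more genes higher than lower. Of 75 genes of the mitochondrial ribosome, 31 rose and 1 fell with cisplatin and 39 rose and 1 fell with oxaliplatin (medians 0.18 and 0.20). Of 78 nuclear genes of the respiratory chain, 40 rose with cisplatin and 51 with oxaliplatin and none fell (0.18 and 0.22), with Cox5b at 0.33 and 0.37. Of 38 proteasome genes, 19 rose and 3 fell with cisplatin and 20 rose and 2 fell with oxaliplatin (0.16 and 0.19). With the length and GC trend removed, the medians of these lists were 0.03 and 0.05, -0.04 and 0.02, and 0.01 and 0.05, in the same order of lists and with cisplatin first. For the respiratory chain, 11 of the 78 genes were then lower with cisplatin. This was a smaller share than the 3142 of all 17348 genes called lower in that fit.

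**Figure D5:**
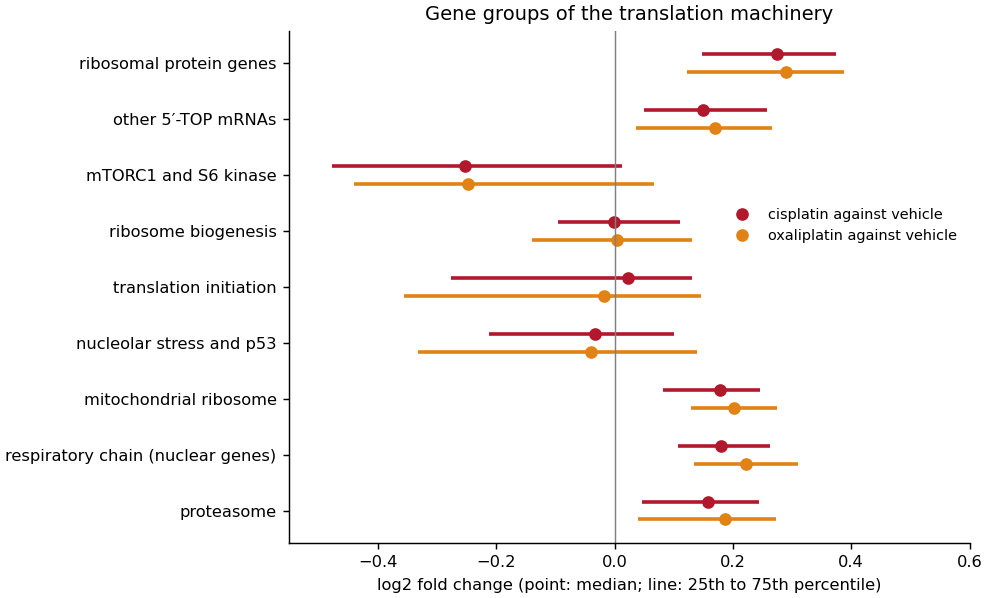
Median log2 fold change (points) and 25th to 75th percentile (lines) of the genes of each group, cisplatin above oxaliplatin. Among the groups shown, which leave out the cell type markers, the ribosomal protein genes have the highest medians, 0.28 and 0.29. The mTORC1 and S6 kinase genes have the lowest, -0.25 with each drug.

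Markers of blood and myelin moved with the family. Of 13 neutrophil markers, 13 rose with cisplatin and 11 with oxaliplatin. Their summed level was 291, 256 and 183 CPM with cisplatin, 97.6, 219 and 204 CPM with oxaliplatin and 62.3, 111 and 47.2 CPM with vehicle. Of 8 erythrocyte markers, 8 rose with cisplatin and 6 with oxaliplatin, and their summed level was 241, 221 and 117 CPM, 103, 221 and 229 CPM, and 53.7, 71.9 and 63.1 CPM in the same order of groups. Cisplatin library 3 and oxaliplatin library 1, the lowest of their groups in the share of reads on ribosomal protein genes, were also the lowest of their groups in both marker sums. Vehicle library 2 had the lowest share of its group (0.281%) but the highest of both marker sums. After TMM scaling, the scale of these sums, its family level of 4018 CPM was the highest of the vehicle libraries. Of 13 macrophage markers, 12 rose with cisplatin and 10 with oxaliplatin, of 12 myelinating Schwann cell markers 12 and 6, and of 16 markers of the meningeal sheath 13 and 11, with none lower. Their summed levels ranged from 243 to 323 CPM with cisplatin, 240.3 to 284 CPM with oxaliplatin and 158 to 211 CPM with vehicle for macrophages. They ranged from 5456 to 6827 CPM, 5185 to 5484 CPM and 4002 to 4889 CPM for Schwann cells, and from 1143 to 1609 CPM, 1252 to 1435 CPM and 824 to 1037 CPM for the sheath, in that order of groups. No marker on these lists was at 0 in all libraries. Of 18 pan-neuronal markers, 1 rose and 8 fell with each drug. Of 11 satellite glia markers, 3 rose and 3 fell with cisplatin and 2 rose and 3 fell with oxaliplatin, of 10 tested lymphocyte markers 3 and 2 rose, and no skeletal muscle marker of 12 was called. The pan-neuronal markers had a median mRNA of 3091.5 nt, against 984 nt for neutrophil, 991.5 nt for erythrocyte and 1230 nt for macrophage markers. These marker counts are without removal of the length and GC trend, and its part in them was not tested. The part of these cells in the change of the ribosomal protein genes was not tested.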

How the data were processed

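The deposited files hold raw counts of reads per gene symbol, not normalized by the authors, for 9 libraries of 3 per group. The submitters' processing notes name STAR, SAMtools, HTSeq and mm10 (GRCm38) with no version; the annotation and strand setting were not given in the sources used here. The 5 classes of reads assigned to no gene were left out of library totals. All 9 libraries were fitted together in edgeR 4.0.16 (R 4.3.3) with TMM scaling, filterByExpr, a separate mean for every group and the quasi-likelihood F test, and p-values were adjusted (Benjamini-Hochberg) over all 17348 genes tested. SE was taken as |log2 fold change| divided by the root of F. Library measures were compared by two-sided exact permutation tests. mRNA lengths, GC content and gene positions came from GENCODE M21 (principal transcripts) and start regions from RefSeq GRCm38.p6. The procedure was tested on simulated counts.

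The members, gene lists and tests were chosen with earlier results of these data known. Named genes were 14 with known roles, the paralogs with their partners, the 5 highest and 5 lowest called without overlap per drug, the 5 smallest p-values between the drugs, the 5 highest levels per kilobase, members filtered out, and the 2 smallest p-values of every other list; genes outside this rule are marked in the text as named after their values were seen. The text gives those of the list genes that bear on the family, and some genes that meet the rule are not reported here. Alternatives were median-ratio size factors, library totals alone, TMM without the members, no filter, a filter of 1 CPM in 3 libraries, voom with limma 3.58.1, DESeq2 1.42.0, a replicate block, fits of 2 groups, an adjusted p of 0.1, removal of 1010 rows of mitochondrial, small and structural RNAs, removal of each library's length and GC trend (mgcv 1.9.3), and leaving out each library. Nothing in the labels shows that pools with the same number were paired, and p-values measure only the spread between pools.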

Additional observations from a re-analysis of the deposited data

Results flagged for a closer look

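Rows named as pseudogenes of ribosomal proteins, 222 in number and outside the comparisons above, carried reads as well. Their summed level averaged 649 CPM with cisplatin and 667 CPM with oxaliplatin, against 526 CPM with vehicle, and they were flagged because a signal in data left out of the comparisons stood above the control libraries. Per library they had 672, 667 and 607 CPM with cisplatin, 618, 710 and 673 CPM with oxaliplatin (617.5, 709.7 and 673.3 before rounding) and 507, 586 and 485 CPM with vehicle, so the groups did not overlap (exact permutation p = 0.1 for each drug, the smallest possible). Set against the reads of the members they made up 14.5 to 14.8% with cisplatin, 14.9 to 15.1% with oxaliplatin and 14.4 to 14.6% with vehicle. Whether these reads come from the pseudogenes or from the parent genes was not tested.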

How the results depend on the processing

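Counts of 47 and 48 rising members (cisplatin and oxaliplatin, here in that order throughout) stayed within 1.5 times of these values except with the length and GC trend removed, which gave 15 and 19 higher, 3 and 6 lower, and medians of 0.034 and 0.057. Library totals alone gave 66 and 65 higher, 0 and 0 lower, and medians of 0.58 and 0.60, where 34.5 and 36.9% of all genes were higher with a median of 0.29 and 0.30. The number lower with cisplatin was 2 at an adjusted p under 0.1. The number lower with oxaliplatin was 1 with median-ratio factors, TMM without the members, no filter, the 1 CPM filter, DESeq2, small RNAs removed, the 2 groups alone and most left-out libraries. Without 1 library each, 32 to 55 members rose with cisplatin and 32 to 57 with oxaliplatin, medians spanned 0.23 to 0.36 and 0.24 to 0.35, and 1 to 2 were lower with oxaliplatin. In these fits 10.2 to 19.2% of all genes were called higher with cisplatin and 11.1 to 20.4% with oxaliplatin. With the trend removed, Rplp1 (-0.15 and -0.17) and Rps15 (-0.11 and -0.16) turned, as did Rpl3 with oxaliplatin (-0.0072); Rpl10a with oxaliplatin was 0.037 on library totals. The cause was not tested. The share of reads on the family, cisplatin minus oxaliplatin, was -0.00753 percentage points, and it was 0.000935 with small RNAs removed and -0.0304 to 0.0164 over left-out libraries. The replicate block gave 47 higher and 1 lower with cisplatin and 49 higher and 1 lower with oxaliplatin. Same-numbered pools correlated at -0.21 to 0.168, which with 3 libraries per group cannot settle whether they were paired. Depth limits the 12 core genes under 100 reads.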
